A study of Macaca mulatta with 25 samples.

Results

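Motile cilium and multiciliogenesis genes were examined in the cervix of rhesus macaques. The 111 genes described here were taken by symbol from the 15534 genes that a probe set of the array names singly. They comprise the 38 CFAP, 17 IFT, 12 DNAH, 10 EFCAB, 7 SPAG, 5 DNAAF, 5 RSPH, 4 DNAI and 4 TEKT genes, together with FOXJ1, CCNO, MCIDAS, RFX2, RFX3, CAPS, HYDIN, CCDC39 and CCDC40. ROPN1L was also sought by name and had no probe set here. Of the 111 genes 14 had several probe sets, up to 7 for DNAH9, and the probe set with the highest mean over the 25 arrays stood for each gene.

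All 25 animals had been ovariectomized and carried an estradiol implant, so every group, the E2 controls included, lacked ovaries and received estradiol. The E2 group had estradiol alone for 14 days. In the E+1P group a progesterone implant was added for 1 day, in the E+3P group for 3 days, in the E+7P group for 7 days and in the E+14P group for 14 days. Each group had 5 animals and 5 arrays, one per animal. The days of estradiol before progesterone are not in the array labels, the design text of the series gives other group sizes, and the labels name the tissue as cervix without saying which of its regions was taken. RNA of the whole tissue was hybridised, and values are log2 signals.

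A motile cilium is built on an axoneme of microtubule doublets around a central pair. Its beating is driven by dynein arms (DNAH heavy chains, DNAI intermediate chains) that DNAAF proteins assemble in the cytoplasm, it is regulated through radial spokes (RSPH) and the central apparatus (HYDIN, SPAG6, SPAG16, SPAG17), and the doublets are stabilised by tektins (TEKT) and many CFAP proteins. IFT proteins carry cargo in motile and primary cilia alike. In vertebrates GMNC and MCIDAS start the multiciliated cell programme, CCNO and DEUP1 act in the multiplication of centrioles, and FOXJ1, RFX2 and RFX3 switch on the axonemal genes. In the endocervix ciliated cells lie among mucus-secreting columnar cells, and in the macaque oviduct estradiol is known to promote cilia and progesterone their loss.

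In the level of the cilium genes 3 arrays lay far below the others. The mean log2 signal of the 111 genes was 5.33 in E+3P replicate 2, 5.21 in E+3P replicate 3 and 5.39 in E+14P replicate 4, and it ran from 6.06 to 7.26 in the other 22 arrays. In distance from the median array, each of the 3 exceeded 4 scaled median absolute deviations. For the 24 axonemal genes (DNAH, DNAI, RSPH, HYDIN, CCDC39 and CCDC40) the means there were 4.42, 4.42 and 4.66, against 5.68 to 7.20 in the other 22. Of the 111 cilium genes 55 (49.5%) were lower in all 3 of these arrays than in each of the other 22, a pattern that 2.48% of all genes showed. Ciliated cell markers that the gene selection did not use, 13 measured genes such as DYNLRB2 and CETN2, were low in the same arrays, with means of 4.93 to 4.99 there and 5.94 to 7.25 elsewhere. In whole tissue, fewer ciliated cells and less RNA per ciliated cell cannot be told apart.

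**Figure D1:**
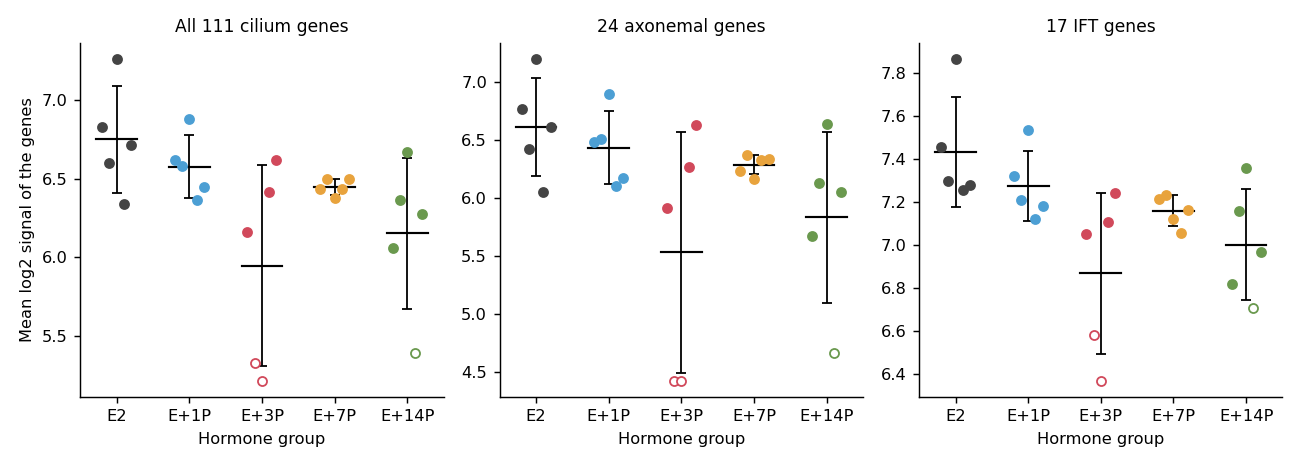
Mean log2 signal of all 111 cilium genes, of the 24 axonemal genes and of the 17 IFT genes, by hormone group, with the groups in order of days of progesterone. Each point is 1 array (5 a group), open points are E+3P replicates 2 and 3 and E+14P replicate 4, and bars are the mean ± SD. The open points lie below the other 22 arrays in all 3 panels.

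The 3 arrays also differed in other tissue markers. Columnar secretory epithelium genes (21 measured) averaged 5.35, 6.23 and 6.82 in E+3P replicate 2, E+3P replicate 3 and E+14P replicate 4, below the range of 7.01 to 8.36 in the other 22 arrays. Squamous epithelium genes (14 measured) averaged 10.08 in E+3P replicate 3 and 5.11 and 6.96 in the other 2 arrays, against 4.42 to 8.31 elsewhere. Smooth muscle genes (14 measured) averaged 8.26 to 9.32 in the 3 arrays and 6.10 to 9.35 in the rest. Leukocyte genes (9 measured) averaged 5.75, 6.51 and 6.57 in the 3 arrays, in ascending order, and 4.73 to 6.27 in the rest. Fibroblast genes (8 measured) averaged 9.61, 10.02 and 10.37, again in ascending order, and 7.86 to 10.14 in the rest. By group, the columnar mean spanned 5.35 to 8.20 in E+3P and 6.82 to 7.82 in E+14P, against 7.52 to 8.36 in E2. The part of tissue makeup in the cilium results was not tested, so the results that rest on these arrays are given with and without them. Against E2, 6 columnar genes were called lower and 1 higher in E+3P and 4 lower in E+14P, and 0 squamous or smooth muscle genes were called at either time. Of all genes 7.16% were called lower and 5.03% higher in E+3P, and 3.53% lower and 2.26% higher in E+14P.

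Over the time course the mean of the 111 genes was 6.75 ± 0.34 in E2, 6.58 ± 0.20 in E+1P, 5.95 ± 0.64 in E+3P, 6.45 ± 0.05 in E+7P and 6.15 ± 0.48 in E+14P (SD, n = 5 each). Without the 3 low arrays it was 6.40 ± 0.23 in E+3P (SD, n = 3) and 6.34 ± 0.25 in E+14P (SD, n = 4). The animals of E+7P were alike: the median over genes of the SD among the 5 arrays was 0.40 in E2, 0.26 in E+1P, 0.56 in E+3P, 0.17 in E+7P and 0.47 in E+14P. Limma's moderated test with Benjamini-Hochberg adjustment over all 40489 probe sets was used for each comparison, and a gene is said to be called, to have fallen or to have risen where its adjusted p was under 0.05.

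After 1 day of progesterone no cilium gene was called in E+1P against E2 by limma. Among all genes 1.47% were called lower and 2.09% higher in that comparison. Of the 111 genes 93 had a log2 fold change below 0, beside 50.2% of all genes. The median was -0.19 over the cilium genes and -0.00116 over all genes. DNAAF9, named as a dynein axonemal assembly factor, had the only groups without overlap, at 7.17, 7.08, 7.00, 7.03 and 6.90 in E+1P, against 7.33, 7.48, 7.57, 7.68 and 7.32 in E2. Groups without overlap occurred in 3.54% of all genes with E+1P lower and in 4.29% with E+1P higher, where 0 cilium genes had them. DNAAF9 differed by -0.44 ± 0.13 (log2 fold change ± SE, adjusted p = 0.0691), and by -0.44 with an adjusted p of 0.0274 without the 3 low arrays. None of those 3 arrays is in E+1P or E2, so the estimate stayed and the SE fell to 0.11. From E+3P on it lay between 7.05 and 7.88, within or around the E2 range.

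After 3 days 40 of the 111 cilium genes (36%) had fallen in E+3P against E2 and 0 had risen, where 7.16% of all genes fell and 5.03% rose. The median log2 fold change was -0.71 over the cilium genes and 0.05 over all genes, and 98 of 111 were below 0, beside 43.8% of all genes. The genes that fell included 15 of 38 CFAP, 8 of 17 IFT, 4 of 5 RSPH and 4 of 10 EFCAB genes, 2 of 12 DNAH genes (DNAH7 and DNAH11), 1 each of 5 DNAAF (DNAAF4), 7 SPAG (SPAG1) and 4 TEKT genes (TEKT2), 0 of 4 DNAI genes, and CAPS, CCNO, HYDIN and RFX3. On the 22 other arrays 7 fell, of which 6 were among the 40 (CAPS, CCNO, CFAP95, CFAP126, EFCAB10 and IFT80, with EFCAB14 as the other), where 3.82% of all genes fell. The median was then -0.35, with 92 of 111 genes below 0. Leaving out E+3P replicate 2 alone gave 14 called genes and replicate 3 alone 13, leaving out E2 replicate 3 gave 16 and E2 replicate 1 gave 25, and leaving out E+3P replicate 5 gave 63. With the columnar mean of each array as a covariate 2 genes were called. For arrays left out singly and for this covariate the share of all genes called is not given, so these counts have no background.

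**Figure D2:**
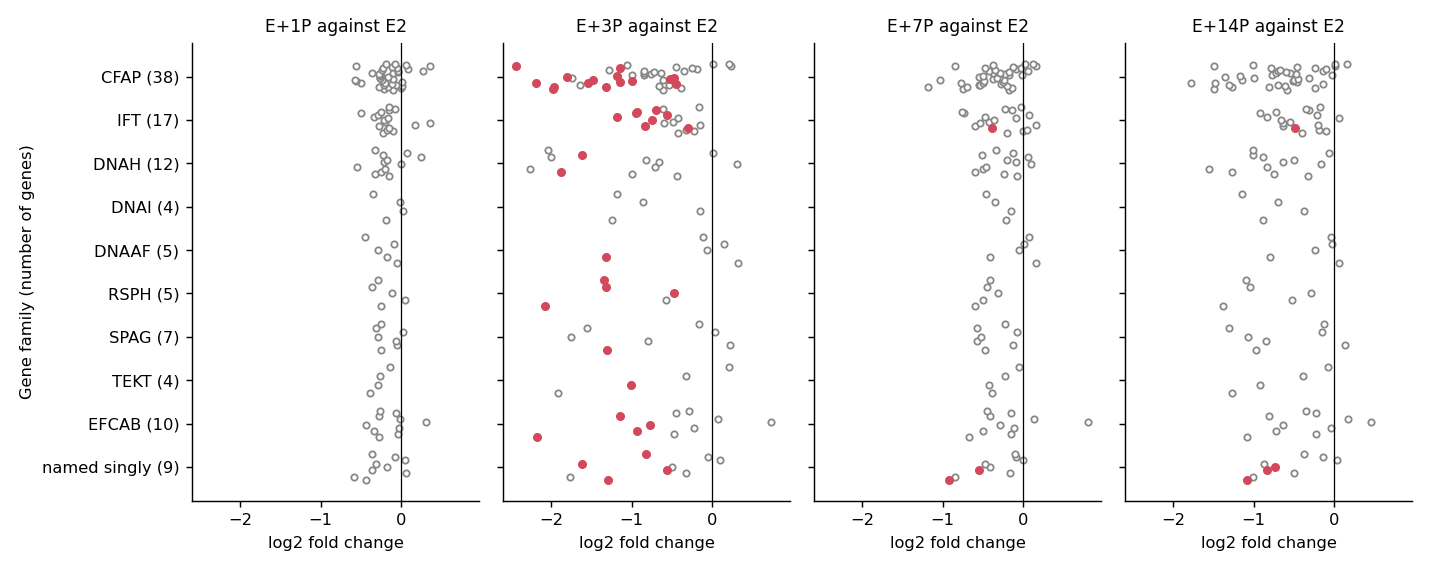
Log2 fold change of each of the 111 cilium genes in each progesterone group against E2, by gene family, with the number of genes in brackets. Filled red points are genes called by limma (0, 40, 3 and 4 genes) and open points are not called. Most points lie left of 0 in every panel, and the spread to the left is widest in E+3P.

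Axonemal genes ranged widely among the E+3P animals. DNAH9, an outer arm dynein heavy chain, read 7.05, 3.14, 3.38, 7.39 and 7.80 in E+3P, against 7.86, 7.58, 8.88, 7.07 and 7.55 in E2. The low values were in replicates 2 and 3, the other 3 E+3P animals lay at 7.05 to 7.80 beside an E2 range of 7.07 to 8.88, and DNAH9 was not called (-2.04 ± 0.74, adjusted p = 0.0767). In E+14P it read 6.68, 7.20, 8.25, 4.58 and 7.18, with the low value again in the array that was low in all cilium genes. All 7 probe sets of DNAH9 were lower in E+3P, by -0.75 to -2.04. A probe set other than the one used was called lower there (-1.35, adjusted p = 0.0469). RSPH1, a radial spoke head protein, read 7.08, 4.08, 4.08, 7.36 and 7.45 in E+3P, against 8.24, 7.81, 8.77, 7.36 and 8.25 in E2, and fell by 2.08 ± 0.61 on the log2 scale (adjusted p = 0.0336), while the difference was -0.79 (adjusted p = 0.118) with the 3 low arrays left out. HYDIN, of the central apparatus, fell by 1.61 ± 0.48 (adjusted p = 0.0346), and differed by -0.72 without the 3 low arrays (adjusted p = 0.202). DNAH7, an inner arm heavy chain, fell by 1.61 ± 0.50 (adjusted p = 0.0412), with a difference of -0.59 (adjusted p = 0.252) on the other 22 arrays.

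A few genes were low in every E+3P animal. CFAP126, a microtubule-associated axonemal protein, read 8.08, 6.33, 6.22, 8.76 and 8.99 in E+3P, against 9.71, 9.42, 10.45, 9.04 and 9.58 in E2. Its groups did not overlap, and it fell by 1.97 ± 0.47 on the log2 scale (adjusted p = 0.0117), or by 1.03 without the 3 low arrays (adjusted p = 0.0258). IFT80, of the IFT-B complex, read 6.63, 6.02, 6.11, 6.76 and 6.66 in E+3P, against 7.06, 7.10, 6.97, 7.33 and 7.18 in E2, again without overlap (-0.69 ± 0.13, adjusted p = 0.00293, and -0.45 with an adjusted p of 0.0379 on the other 22 arrays). EFCAB10, an EF-hand protein, had no overlap either, at 3.35 to 6.68 in E+3P and 6.73 to 8.36 in E2 (-2.17 ± 0.47, adjusted p = 0.00598, and -1.23 with an adjusted p of 0.0316 on the other 22 arrays). The size of the CFAP95 difference was the largest of the 111 genes, at -2.44 ± 0.61 (adjusted p = 0.0149), and -1.25 without the 3 low arrays (adjusted p = 0.0158). Its groups overlapped, with 6.87 as the highest E+3P value and 6.83 as the lowest E2 value. In all, 14 cilium genes (12.6%) were lower in every E+3P animal than in every E2 animal, as were 4.17% of all genes. DNAAF3 was the gene with the opposite separation (0.901% of the cilium genes and 3.78% of all genes), at 0.33 higher in E+3P with an adjusted p of 0.112.

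Progesterone for 3 days was also set against progesterone for 1 day. In E+3P against E+1P 7 cilium genes (6.31%) fell and 0 rose, where 4.13% of all genes fell and 1.76% rose. They were IFT27, IFT80, EFCAB10, CFAP251, CFAP126, CAPS and CFAP90. IFT27, of the IFT-B complex, read 6.317, 5.657, 5.703, 6.602 and 6.002 in E+3P, against 7.421, 6.953, 7.209, 6.873 and 6.637 in E+1P, without overlap (-0.96 ± 0.20, adjusted p = 0.00806). In E2 it read 6.73, 6.65, 7.12, 6.36 and 6.42, so the E+1P animals lay partly above E2 (0.36 ± 0.20, adjusted p = 0.467). Without the 3 low arrays 0 of the 111 genes fell between these groups and 1 rose, DNAAF9 (0.53, adjusted p = 0.0388), where 1.39% of all genes fell and 0.303% rose. Leaving out 1 array gave 1 called gene without E+3P replicate 2, E+3P replicate 3 or E+1P replicate 3, 2 without E+1P replicate 1, 4 without E+1P replicate 4 or 5, 15 without E+3P replicate 4 and 32 without E+3P replicate 5. The share of all genes called with each array left out is not given, so these counts have no background.

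After 7 days 3 cilium genes (2.7%) had fallen in E+7P against E2 and 0 had risen, beside 3.58% and 2.27% of all genes. They were CAPS, CCNO and IFT20. The median log2 fold change was -0.30, with 95 of 111 genes below 0, beside 46.3% of all genes. Groups without overlap in the lower direction were found for 11 genes (9.91%), against 4.68% of all genes. Between E+7P and E+3P 0 cilium genes were called. There 15 of 111 had a log2 fold change below 0, beside 53.8% of all genes, and 96 were above 0, with a median of 0.38. Of all genes 0% fell and 0.00644% rose there. RFX3, IFT57 and IFT80 were higher in every E+7P than in every E+3P animal (2.7% of cilium genes and 0.695% of all genes), and 0 were lower in every one (0.978% of all genes). The 3 differences were 0.72 for RFX3, 0.64 for IFT57 and 0.56 for IFT80 on the log2 scale (adjusted p = 0.328, 0.293 and 0.222). Without the 3 low arrays the median of the cilium genes in that comparison was 0.03.

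After 14 days 4 cilium genes (3.6%) had fallen in E+14P against E2 and 0 had risen, beside 3.53% and 2.26% of all genes. The 4 were CAPS, CCNO, IFT20 and FOXJ1. The median log2 fold change was -0.60, with 102 of 111 genes below 0, beside 45.7% of all genes. Groups without overlap were found for 7 cilium genes (6.31%) with E+14P lower and 0 with E+14P higher, beside 3.99% and 3.7% of all genes; the 7 were CAPS, CCNO, FOXJ1, CFAP36, IFT20, IFT22 and TEKT2. When the 3 low arrays were left out the median was -0.37, with 101 of 111 below 0. Between E+14P and E+7P 0 cilium genes were called, as were 0% of all genes in either direction. The F test over the 5 groups called 12 cilium genes (10.8%), against 12% of all genes: CAPS, CCNO, FOXJ1, CFAP90, CFAP126, CFAP210, CFAP300, IFT20, IFT22, IFT27, IFT80 and EFCAB10. Without E+14P replicate 3, the array of that group with the highest cilium mean, 13 genes were called in E+14P against E2. The F test called 21 without it, 21 without E+3P replicate 4, 41 without E+3P replicate 5 and 7 without E2 replicate 1. These counts with 1 array left out have no background, as the share of all genes called is not given.

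Across the 4 comparisons with E2, which share the E2 animals, 41 cilium genes were called at least once and 70 never. All these calls were lower than E2. Of all genes 1.47%, 7.16%, 3.58% and 3.53% were called lower after 1, 3, 7 and 14 days. The share of all genes called at least once is not given here. CAPS, CCNO and IFT20 were called after 3, 7 and 14 days. FOXJ1 was called after 14 days, and the other 37 after 3 days, without a call at the other times.

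The regulators were read one by one. FOXJ1, the forkhead factor that activates motile cilium genes, read 6.54, 6.49, 6.60, 6.45 and 6.67 in E+14P, against 7.39, 6.92, 7.92, 7.13 and 7.06 in E2. All 5 E+14P animals lay below all E2 animals, and FOXJ1 fell by 0.73 ± 0.16 on the log2 scale (adjusted p = 0.0106). Its mean was 7.28 in E2, 7.11 in E+1P, 6.79 in E+3P, 6.88 in E+7P and 6.55 in E+14P. The fall after 14 days was also called without the 3 low arrays (-0.71, adjusted p = 0.0171) and with the axonemal mean of each array as a covariate (-0.51, adjusted p = 0.0422). Both settings were added after the data were seen, and the mean that picked the 3 arrays includes FOXJ1. The call was lost when E+14P and E2 were fitted by themselves (adjusted p = 0.0516) and against a minimum change of 1.5-fold. After 3 days the adjusted p was 0.052.

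The E+14P array that was low in axonemal genes did not stand apart in FOXJ1. DNAH9 read 4.58 in E+14P replicate 4 and 6.68 to 8.25 in the other 4, while FOXJ1 read 6.45 there and 6.49 to 6.67 in the other 4. E+14P replicate 3 had an axonemal mean of 6.64, within the E2 range of 6.06 to 7.20, and its FOXJ1 signal of 6.60 was below every E2 animal. In E+3P the arrays low in axonemal genes were also the lowest in FOXJ1. Replicates 2 and 3 read 6.53 and 6.43, and the other E+3P arrays 6.76 to 7.37. E+3P replicate 3 and E+14P replicate 4 lay below all 22 arrays other than the low ones, where the lowest FOXJ1 signal was 6.49.

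CCNO, a cyclin-like protein needed for making many centrioles, read 4.47, 4.51, 4.36, 4.54 and 4.61 in E+14P, against 5.21, 5.25, 5.43, 5.03 and 5.72 in E2. The groups did not overlap, and CCNO fell by 0.83 ± 0.14 on the log2 scale (adjusted p = 0.00104). Its signals were low, and only E2 replicate 5, at 5.72, exceeded the median of 5.54 over all probe sets. It had fallen by 0.56 ± 0.14 in E+3P (adjusted p = 0.0122) and by 0.54 ± 0.14 in E+7P (adjusted p = 0.0226). FOXJ1 and CCNO were the 2 cilium genes (1.8%) lower in every E+14P animal than in every E+7P animal, where 0.444% of all genes were, by -0.32 and -0.29 (adjusted p = 0.987 for both).

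IFT20, an IFT-B protein that also works at the Golgi apparatus, read 7.45, 7.75, 7.45, 7.70 and 7.62 in E+14P, against 7.93, 8.11, 8.06, 8.14 and 8.14 in E2. The groups were separate and the change small, at -0.48 ± 0.08 (adjusted p = 0.000751). It was -0.29 ± 0.08 in E+3P (adjusted p = 0.0167, and -0.28 with an adjusted p of 0.0745 on the other 22 arrays) and -0.39 ± 0.08 in E+7P (adjusted p = 0.00364). CAPS, calcyphosine, a calcium-binding protein abundant in ciliated cells, read 5.62, 5.27, 5.50, 4.80 and 5.64 in E+14P, against 6.76, 6.49, 6.80, 5.82 and 6.39 in E2. It fell by 1.30 ± 0.24 after 3 days (adjusted p = 0.00218), by 0.93 ± 0.24 after 7 days (adjusted p = 0.0272) and by 1.09 ± 0.24 after 14 days (adjusted p = 0.0108). No E+3P, E+7P or E+14P animal reached the lowest E2 value of CAPS.

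MCIDAS, the coregulator that acts upstream of CCNO and FOXJ1, did not separate the groups. Its 25 signals ran from 3.85 to 4.44, its log2 fold changes against E2 were between 0.00 and 0.10, and the F test gave an adjusted p of 0.92. All of these signals were below the median of 5.54 over all probe sets. An unchanged level of MCIDAS and a level too low to measure cannot be told apart. RFX2 ran from 5.52 to 6.63 with log2 fold changes of -0.05 to -0.13 (adjusted p of the F test = 0.967). RFX3 fell in E+3P by 0.82 ± 0.23 (adjusted p = 0.0255), with 7.23, 6.66, 6.36, 7.55 and 7.49 in E+3P and 7.91, 7.71, 8.44, 7.60 and 7.72 in E2. On the other 22 arrays the RFX3 difference was -0.45 (adjusted p = 0.178), and in E+7P it was -0.10 ± 0.23 (adjusted p = 0.881).

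**Figure D3:**
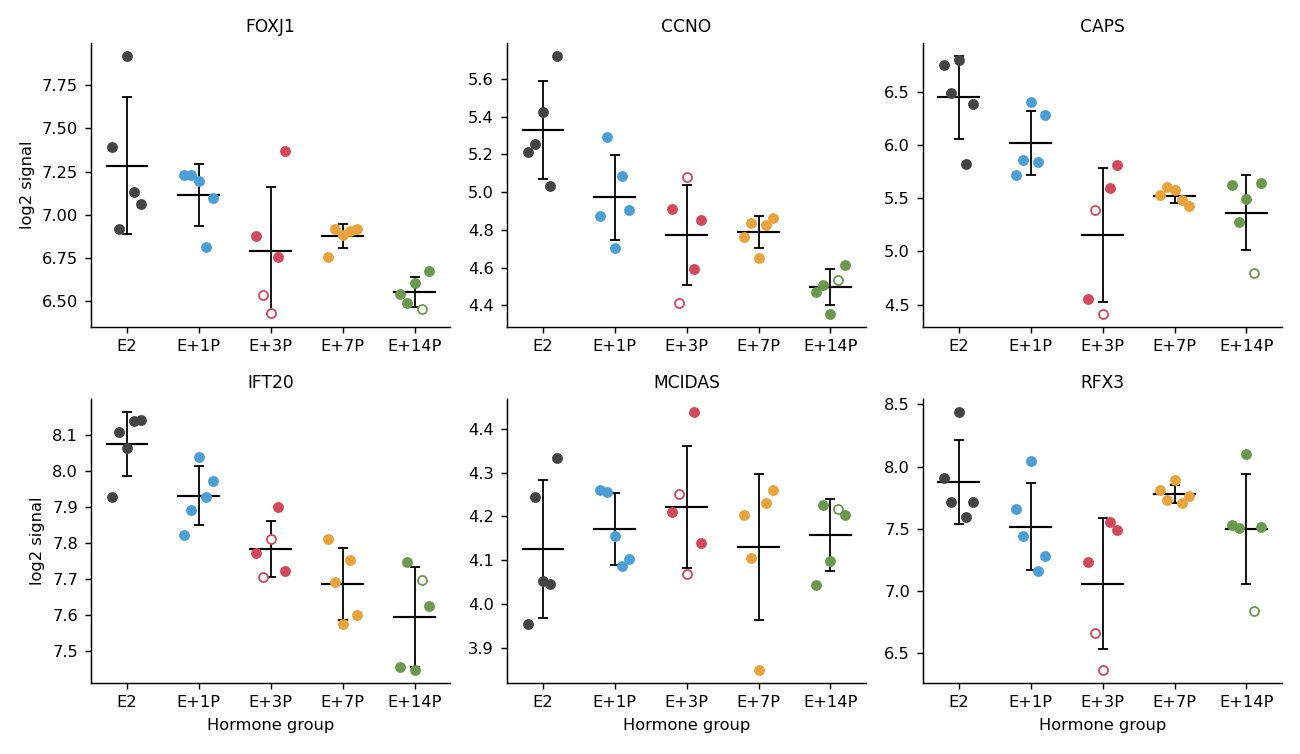
Log2 signal of FOXJ1, CCNO, CAPS, IFT20, MCIDAS and RFX3 in each array by hormone group, with the groups in order of days of progesterone and a scale of its own in each panel. Points are arrays (5 a group), open points are the 3 arrays low in the cilium genes, and bars are the mean ± SD. The E+14P arrays lie below all E2 arrays for FOXJ1, CCNO, CAPS and IFT20, and the groups overlap for MCIDAS.

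Genes upstream of FOXJ1 that the symbol rule does not cover were read from a list of 22 centriole amplification and regulator genes, 18 of them measured. Against E2, 1 of the 18 had fallen after 1 day (CDC20B), 5 after 3 days (GMNC, MYB, E2F5, DEUP1 and CDC20B), 2 after 7 days (DEUP1 and CDC20B) and 3 after 14 days (GMNC, DEUP1 and CDC20B), and 0 had risen. Of all genes 1.47%, 7.16%, 3.58% and 3.53% fell at those times. The median log2 fold changes of the list were -0.19, -0.21, -0.19 and -0.18 at those times.

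CDC20B, expressed during multiciliogenesis and host of the miR-449 genes in human and mouse, was called at all 4 times. It read 4.27, 4.34, 4.13, 3.84 and 4.08 in E+14P, against 6.06, 5.38, 5.72, 5.86 and 5.51 in E2. The fall was 0.69 after 1 day (adjusted p = 0.0346), 1.24 after 3 days (adjusted p = 0.000215), 1.28 after 7 days (adjusted p = 0.000212) and 1.57 after 14 days (adjusted p = 5.09e-05), each on the log2 scale. It was called after 3 days and after 14 days without the 3 low arrays as well (adjusted p = 0.00137 and 0.000278). The call after 1 day was kept in 14 of 21 alternatives and lost against a minimum change of 1.5-fold, when the 2 groups were fitted by themselves, and without any 1 of 5 arrays, namely replicates 2 and 3 of E+1P and replicates 1, 3 and 4 of E2 (adjusted p = 0.0575 to 0.105 for these arrays). In the RefSeq annotation of the T2T-MMU8v2.0 assembly CDC20B, MCIDAS and CCNO neighbour each other, with GPX8 inside CDC20B as the only other protein-coding gene among them. Of these 3 neighbours CDC20B and CCNO fell, and MCIDAS was not called. Signals were low for all 3, beside a median of 5.54 over all probe sets. MCIDAS read 3.85 to 4.44 in all arrays, and in E+14P CDC20B read 3.84 to 4.34 and CCNO 4.36 to 4.61.

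GMNC, the geminin-like coiled-coil protein at the start of the multiciliated programme, read 6.79, 5.11, 4.84, 6.88 and 8.29 in E+3P, against 9.35, 9.42, 8.84, 8.57 and 9.10 in E2. It fell by 2.67 ± 0.51 on the log2 scale after 3 days (adjusted p = 0.0029) and by 2.06 ± 0.51 after 14 days (adjusted p = 0.0241). With the 3 low arrays left out the log2 differences were -1.74 after 3 days (adjusted p = 0.00297) and -1.56 after 14 days (adjusted p = 0.00352), and the difference of -1.65 after 7 days, not called on all arrays (adjusted p = 0.073), was then called (adjusted p = 0.000986). No animal given progesterone reached the lowest E2 value of 8.57, including the E+1P animals at 7.30 to 8.27. The E+1P difference was -1.35 with an adjusted p of 0.208, and it was called with the 3 low arrays left out (-1.35, adjusted p = 0.00411), with the columnar covariate (adjusted p = 0.0421), with 3 makeup covariates (adjusted p = 0.0311) and with the axonemal covariate (adjusted p = 0.00928), in 5 of 22 alternatives in all. None of the 3 low arrays is in E+1P, E+7P or E2. Leaving them out kept the GMNC estimates of E+1P and E+7P and lowered their SE from 0.51 to 0.26. Those arrays were picked by cilium level after the data were seen, so the calls gained that way are descriptions. With the columnar mean as a covariate GMNC was not called after 3 days (-1.41, adjusted p = 0.0938) or 14 days (-1.35, adjusted p = 0.0724), nor with 3 makeup covariates after 3 days (-1.40, adjusted p = 0.0602) or 14 days (-1.26, adjusted p = 0.0553).

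DEUP1, a deuterosome protein of centriole amplification, read 5.14, 4.31, 3.72, 5.45 and 4.65 in E+3P, against 6.52, 5.66, 7.45, 5.63 and 7.04 in E2, and fell by 1.81 ± 0.35 (adjusted p = 0.00291), a call that was lost with the columnar covariate (-1.30, adjusted p = 0.0726). Its fall after 14 days, by 1.28 ± 0.35 (adjusted p = 0.0398), was not called without the 3 low arrays (-0.98, adjusted p = 0.066), and was called in 10 of 22 alternatives. MYB, a transcription factor that acts early in multiciliated cell differentiation, and E2F5, which works in the same programme, were called after 3 days and at none of the other 3 times. On the other 22 arrays neither was called after 3 days (adjusted p = 0.0687 for MYB and 0.0557 for E2F5), while MYB was called after 7 days (-0.80, adjusted p = 0.0229) and 14 days (-0.96, adjusted p = 0.0162). On all arrays the MYB differences were -0.80 and -1.31 with an SE of 0.42, and on the 22 arrays the SE was 0.20 and 0.21.

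**Figure D4:**
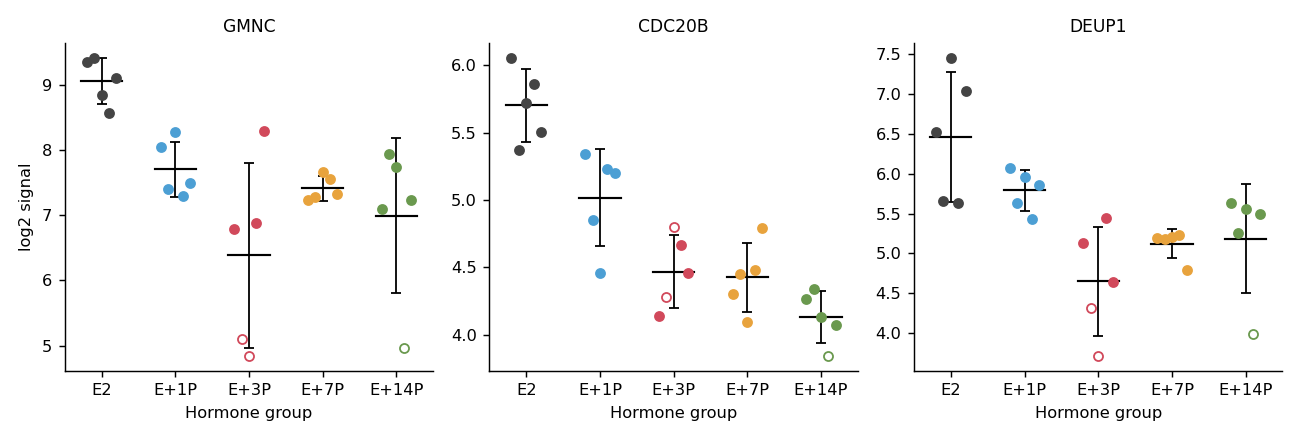
Log2 signal of GMNC, CDC20B and DEUP1 in each array by hormone group, with the groups in order of days of progesterone and a scale of its own in each panel. Points are arrays (5 a group), open points are the 3 arrays low in the cilium genes, and bars are the mean ± SD. For GMNC and CDC20B every array of the 4 progesterone groups lies below every E2 array.

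The cilium genes differed in how closely they followed the axoneme. Over the 22 arrays other than the 3 low ones, Pearson's r with the mean of the 24 axonemal genes (each gene left out of its own mean) had a median of 0.72. It was over 0.8 for 43 genes, led by CFAP43 (r = 0.95) and DNAH12 (r = 0.95), and under 0.4 for 24. The median r was 0.87 for RSPH, 0.87 for DNAI, 0.84 for DNAH and 0.83 for SPAG genes, 0.77 for CFAP and 0.62 for IFT genes, 0.46 for EFCAB and 0.12 for DNAAF genes. Arrays share normalisation and tissue makeup, so these are descriptions without a test.

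Among the regulators RFX3 followed the axonemal mean with r = 0.72 and Spearman's rho = 0.61, FOXJ1 with 0.74 and 0.66, RFX2 with 0.55 and 0.41, CCNO with 0.44 and 0.32 and MCIDAS with -0.0079 and 0.11 (n = 22 arrays each, 5 relations, no p given as the axonemal mean is a score over chosen genes). With values centred within groups r was 0.85 for RFX3, 0.67 for FOXJ1, 0.61 for RFX2, 0.03 for CCNO and 0.04 for MCIDAS. Without the 2 arrays farthest from the median of the axonemal mean, E2 replicate 3 and E+14P replicate 1, r was 0.63 for RFX3, 0.54 for FOXJ1, 0.20 for RFX2 and 0.21 for CCNO, so the RFX2 relation rested on those arrays.

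**Figure D5:**
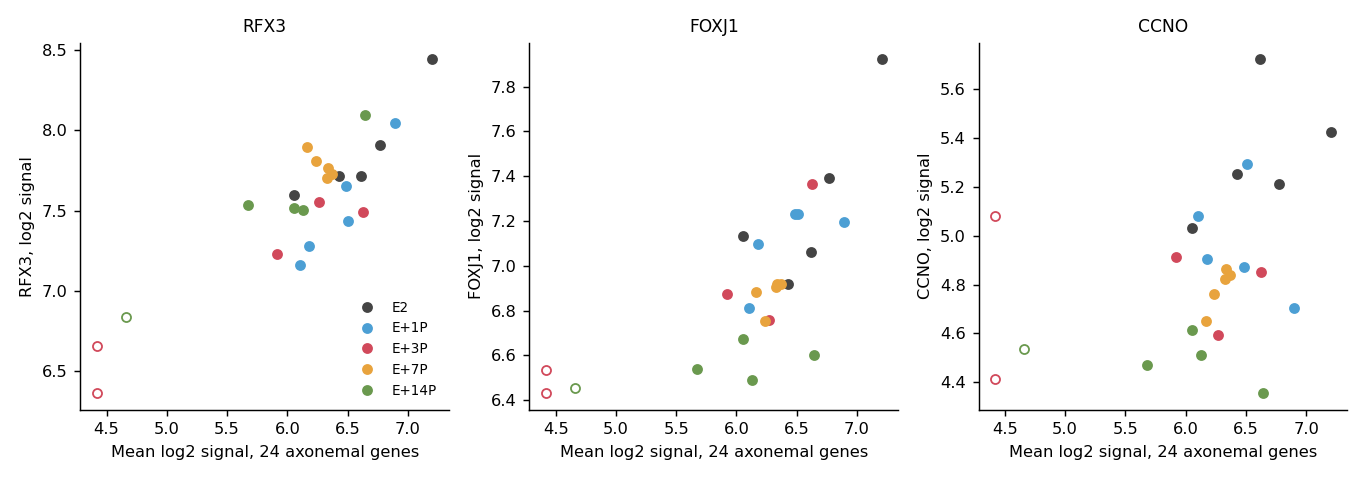
Log2 signal of RFX3, FOXJ1 and CCNO against the mean log2 signal of the 24 axonemal genes, with 1 point per array coloured by hormone group and open points for the 3 low arrays. The open points of RFX3 lie below and to the left of the other 22 arrays, over which r was 0.72, and 0.85 with values centred within groups. The 5 E+14P points of FOXJ1 and CCNO lie in the lower part of their panels over axonemal means of 4.66 to 6.64.

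The 24 genes with r under 0.4 were CFAP68, CFAP92, CFAP97, CFAP97D1, CFAP141, DNAAF3, DNAAF5, DNAAF8, DNAAF9, DNAH8, DNAH14, DNAH17, EFCAB3, EFCAB5, EFCAB9, EFCAB11, EFCAB14, IFT20, IFT52, MCIDAS, SPAG4, SPAG9, SPAG11B and TEKT5. Several of them are known from other places than the ciliated epithelium: DNAH8 and DNAH17 are dynein heavy chains of the sperm tail, SPAG11B belongs to the beta-defensin-like genes of the epididymis, and SPAG9 is a scaffold protein of kinase signalling. Median signals over the 22 arrays were 3.19 to 5.17 for CFAP97D1, CFAP141, DNAH8, DNAH14, DNAH17, EFCAB3, EFCAB5, EFCAB9, MCIDAS, SPAG4, SPAG11B and TEKT5. The medians were 5.58 to 8.32 for the rest of the 24, beside 5.54 over all probe sets. The part of low signal in the low r was not tested. EFCAB3 had the largest positive difference of the 111 genes in E+3P against E2, at 4.69, 5.02, 4.43, 4.39 and 4.27 in E+3P, against 3.93, 4.00, 4.82, 2.94 and 3.45 in E2 (0.73 ± 0.26, adjusted p = 0.0685), with overlap. In E+7P it differed by 0.81 (adjusted p = 0.0769). A second EFCAB3 probe set differed by 0.11 in E+3P (adjusted p = 0.846) and by -0.24 in E+7P (adjusted p = 0.745). Mean signals were 4.29 for the probe set used and 2.76 for the second, below the median of 5.54 over all probe sets.

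Genes outside the symbol rule were ranked by the same measure. The 10 with the highest r with the axonemal mean over all 25 arrays, from 0.97 to 0.99, were CCDC146, SPATA17, ZBBX, FHAD1, KIF27, DYNLRB2, CLXN, DTHD1, C1H1orf87 and LRRIQ1. Over the 22 arrays their r was 0.87 to 0.95. Of 27 measured genes on a list of further ciliary motility genes, 13 had fallen in E+3P against E2 (median -0.88), 0 in E+7P, and 3 in E+14P (ODAD3, CCDC103 and MDH1B), beside 7.16%, 3.58% and 3.53% of all genes, and 0 had risen. ODAD3, of the complex that docks outer dynein arms, read 4.66, 4.53, 4.57, 4.81 and 4.96 in E+3P, against 5.92, 5.55, 6.03, 5.20 and 5.24 in E2, with no overlap (-0.88, adjusted p = 0.00293).

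Genes of other cilia were read beside them. Of 37 measured genes of the BBSome, the transition zone and primary cilia, 7 had fallen in E+3P (median -0.25), 4 in E+7P and 3 in E+14P, beside 7.16%, 3.58% and 3.53% of all genes. In E+1P 1 of the 37 rose, beside 2.09% of all genes. KIF3B, a subunit of the kinesin that drives anterograde transport, and the transition zone genes B9D1 and RPGRIP1L fell at all 3 times, B9D1 by 0.60 (adjusted p = 0.0029), 0.46 (adjusted p = 0.0222) and 0.57 (adjusted p = 0.00586). DYNC2LI1, of the dynein that drives retrograde transport, was the gene of this list called higher in E+1P, at 7.95, 8.10, 8.33, 8.54 and 8.37 in E+1P, against 7.35, 7.24, 7.72, 7.24 and 7.12 in E2 (0.92, adjusted p = 0.0374). The DYNC2LI1 call was kept in 13 of 22 alternatives and lost against a minimum change of 1.5-fold and without any 1 of 8 arrays, namely replicates 2, 3, 4 and 5 of E+1P and replicates 1, 2, 4 and 5 of E2 (adjusted p = 0.0576 to 0.105). The BBSome gene TTC8 read 7.18 to 7.76 in E+1P and 6.53 to 7.35 in E2, a difference of 0.71 with an adjusted p of 0.101. It was called higher in 7 of 22 alternatives, among them without the 3 low arrays (0.71, adjusted p = 0.0139), with 3 makeup covariates (adjusted p = 0.0241) and with the axonemal covariate (adjusted p = 0.00513). Leaving out the 3 low arrays, none of them in E+1P or E2, kept the estimate and lowered the SE from 0.22 to 0.16.

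The hormone response of the animals was read from FKBP5, a progesterone-induced gene. It was 7.87 to 8.14 in E+1P, 7.08 to 8.59 in E+3P, 6.96 to 7.34 in E+7P and 6.76 to 7.88 in E+14P, against 5.23 to 5.95 in E2, so no animal given progesterone overlapped the E2 group. The 3 arrays low in cilium genes read 7.08, 7.71 and 7.19.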

How the data were processed

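The authors deposited log2 expression values for 40489 probe sets of 25 arrays, 1 array per animal with 5 animals a group. Affymetrix Expression Console was used upstream, per the submitters' processing notes. The summarisation method is not given in the sources used here. Whole cervix RNA was amplified and biotin-labelled, per the labels' protocols. Array medians ran from 5.50 to 5.60, and the values were used without further normalisation. Of the probe sets 16020 had 1 gene symbol, 490 several and 23979 none in the platform annotation, and 0 other columns of per-sample values were present. No array batch or date was given. Precision is limited by there being 5 arrays a group.

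A group-means model was fitted to all probe sets and all 25 arrays with limma 3.58.1 in R 4.3.3 (20 residual degrees of freedom, moderated variances with a mean trend), with 4 contrasts against E2, 3 between consecutive times and an F test. P-values are two-sided, adjusted by Benjamini-Hochberg over all probe sets, with a threshold of 0.05. SE is the moderated standard error and SD is over arrays. Genes called, gene lists and the correlations of each gene with the axonemal mean were computed in R. The regulator correlations and the counts over the alternatives were computed with Python 3.11.15 (pandas 2.3.3, NumPy 2.4.6, SciPy 1.17.1). The fit was tested on simulated data. Correlations had been planned over 25 arrays and are given over 22, since the other 3 form a separate cluster. No sequence is shown and promoters were not analysed here.

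The cilium genes, the gene lists and the rule for naming genes were chosen with earlier results of these data known. The rule covered the genes listed singly, the genes of each family with the 3 lowest F test p-values and the highest, up to 10 called genes each way against E2, up to 5 between consecutive times, the 4 leading genes of each list, and the 10 outside genes most like the axonemal mean. Not every gene that the rule covered is described above. Among those left out are DNAI1 and the hormone response genes PGR, TSC22D3 and ESR1. Other named genes, such as DNAH7, DNAH9, CFAP95 and EFCAB3, were chosen after their values were seen. The alternatives were another normalisation between arrays, a filter on dim probe sets, other variance models and array weights, another probe set per gene, tissue makeup covariates, arrays left out, a minimum change of 1.5-fold and fits of 2 groups. Leaving out the 3 low arrays and the axonemal covariate were added after seeing the data.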

Additional observations from a re-analysis of the deposited data

Results flagged for a closer look

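Of 185 groups of 5 arrays examined, 10 held an array whose gap to its nearest neighbour was a large part of the group's range, and chance gives such a gap in about 1 of 20 groups. In E+14P replicate 4, one of the 3 arrays low in cilium genes, the log2 signal was the lowest of its group for CFAP126 (6.62), CFAP95 (3.58), GMNC (4.96) and DEUP1 (3.99). In E+7P, where the arrays lay close together, replicate 1 was lowest for FOXJ1 (6.75), replicate 3 for RSPH1 (7.12) and replicate 5 for DEUP1 (4.80), and replicate 2 was highest for DNAAF4 (6.55). E2 replicate 3 was highest for TTC8 (7.35), and E+1P replicate 5 was lowest for FKBP5 (7.87).

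The change against E2 differed between 3 days and 1 day of progesterone in 7 cilium genes by limma's test of E+3P against E+1P. The log2 differences were -0.96 for IFT27 (adjusted p = 0.00806), -0.55 for IFT80 (adjusted p = 0.0203), -1.91 for EFCAB10 (adjusted p = 0.0216), -1.17 for CFAP251 (adjusted p = 0.0303), -1.80 for CFAP126 (adjusted p = 0.0313), -0.87 for CAPS (adjusted p = 0.0390) and -0.92 for CFAP90 (adjusted p = 0.0457). In all 7 the E+3P mean was below the E+1P mean, and 0 of them were called without the 3 low arrays.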

How the results depend on the processing

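The count of cilium genes called was the value that moved most with the processing, and the cause was not tested. The share of all genes called under each alternative is not given beside these counts, so they have no background to be read against. For E+3P against E2, 40 genes were called, and 16 with array weights, 2 with the columnar covariate, 4 with 3 makeup covariates, 4 without the arrays apart in tissue makeup, 7 without the 3 arrays low in cilium genes, 4 with the axonemal covariate, 2 in a fit of the groups alone and 0 against a minimum change of 1.5-fold. Leaving out 1 array gave 13 to 63. For E+1P against E2, 0 genes were called, and 1 without dim probe sets, with array weights, with the columnar or axonemal covariate, without the arrays apart in makeup or in cilium genes, and in a fit of the groups alone. For E+7P against E2, 3 genes were called, and 5 with array weights, without the 3 low arrays or in a fit of the groups alone, 9 with 3 makeup covariates and 0 against the minimum change. For E+14P against E2, 4 genes were called, and 7 with arrays centred on their median, 8 without dim probe sets, 15 without the arrays apart in makeup and 0 against the minimum change, with 4 to 13 on leaving out 1 array. For E+3P against E+1P, 7 genes were called, and 11 without dim probe sets, 1 with the columnar or 3 makeup covariates or without either set of arrays apart, 3 with the axonemal covariate, and 0 against the minimum change or in a fit of the groups alone, with 1 to 32 on leaving out 1 array. The F test called 12 genes, and 25 without dim probe sets, 4 with the columnar covariate, 6 without the arrays apart in makeup and 7 with the axonemal covariate, with 7 to 41 on leaving out 1 array. The correlation of CCNO with the axonemal mean was 0.48 after quantile normalisation, and that of RFX2 was 0.20 without the 2 arrays farthest from the median.

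Over the cilium genes called, 726 of 1231 alternative values kept the call, 505 lost it and 0 turned direction. Leaving out arrays by their cilium level selects by the genes tested, so those counts and the adjusted p-values on the remaining arrays are descriptions. For groups that hold none of the arrays left out, the estimate stays the same and the SE alone changes. Without batch labels, a batch effect could not be looked for. No paired analysis was possible because each animal belongs to 1 group and the replicate numbers follow accession order.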
